A study of Mus musculus with 3 samples.

Results

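Peroxisome proliferator-activated receptors (PPARs) are nuclear receptors that bind fatty acids and, paired with retinoid X receptors, switch on genes for taking up, storing and burning fat. In skeletal muscle these genes are known for their response to fasting, exercise and dietary fat, and long-chain omega-3 fatty acids such as eicosapentaenoic acid (EPA) are natural ligands of the receptors. The genes described here are 10 that are commonly used as readouts of this pathway, chosen by symbol: Lpl, Angptl4, Cd36, Fabp3, Plin2, Plin5, Acot2, Pdk4, Ucp3 and Ucp2. They were chosen with earlier results of these data known. All 10 were found, each as 1 row, among 42225 gene symbols, and all 10 were among the 12966 genes that averaged 1 CPM (counts per 1000000) or more over the libraries and were compared. Binding or activity of a PPAR was not measured, so the name of the group describes what is known of the genes and not a result.

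The RNA came from gastrocnemius and plantaris, mixed calf muscles made mostly of fast fibres, of male mice. The aged EPA library held RNA of 6 C57BL/6J mice that ate a diet with 1 wt% EPA for 12 weeks, between 75 and 87 weeks of age. The aged control library held RNA of 6 C57BL/6J mice of the same age that ate an EPA-deprived diet over the same 12 weeks. The young library held RNA of 3 mice aged 24 weeks, whose strain is written C57BL/7J in the labels and whose diet they do not give. RNA of each group was pooled into 1 library, so no test between groups is possible, differences between mice are unknown, and age cannot be told apart from the young mice's diet and strain entry. In pooled tissue RNA, fewer cells of a type and less RNA per cell cannot be told apart either.

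The recovered depth was 55969822 counts for aged EPA, 57622886 for aged control and 57386394 for young. The fast myosin gene Myh4 stood at 29432 CPM in aged EPA, 32200.5 CPM in aged control and 25129.7 CPM in young, so the defining fast fibre gene of the labelled muscle was abundant in each library. Behind the deposited CPM stand 5 divisors that changed from gene to gene, in place of 1 total per library, so the counts behind them were recovered. Of the 5, 3 lay 0.111% to 0.115% above the recovered totals of the 3 libraries, while the other 2 lay 0.857% and 1.05% above that of the nearest library and matched none. Why the divisors changed is not given in the sources used here, and every count ratio rests on this recovery. Each change is given as the log2 ratio of deposited CPM + 1, and beside it stands the count ratio, the log2 ratio of recovered counts each divided by the total of its library, with a 95% interval (exact Clopper-Pearson, given the sum of both counts) that covers counting error only.

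A PPAR binds DNA most often at a DR1 element, a pair of AGGTCA half-sites with 1 base between them. Promoter sequence from RefSeq on build GRCm38.p6 was given for 8 of the 10 genes, not for Angptl4 and Lpl, and the 250 bases before the start were searched on both strands. An exact AGGTCA lay before 4 of these 8 genes and in 14.0% of 32851 promoters of the same length, which belong to 27025 genes. Here and below, a gene counted if any of its promoters held the match, while the percentages count promoters, so the units differ. A match to AGGTCA, any base and AGGTCA in one direction, with at most 2 mismatches in these 12 letters, lay before 3 of the 8 genes and in 3.24% of all promoters. The stretches around the matches are shown because they hold the letters that the receptors are known to bind; capitals mark the match, a half-site inside a DR1 match is marked with it, and every line reads in the gene's direction. A match of letters is no evidence that a receptor sits there.
Ucp3 DR1 match, chr7:100472903-100472989, plus strand: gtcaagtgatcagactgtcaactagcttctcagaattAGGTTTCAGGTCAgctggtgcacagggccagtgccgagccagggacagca
Ucp3 half-site, chr7:100472805-100472884, plus strand: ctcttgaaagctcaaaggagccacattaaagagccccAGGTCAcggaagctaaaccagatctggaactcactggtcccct
Plin2 DR1 match, chr4:86670235-86670309, minus strand: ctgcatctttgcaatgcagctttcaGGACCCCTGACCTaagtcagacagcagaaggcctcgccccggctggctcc
Cd36 DR1 match, chr5:17835910-17835996, minus strand: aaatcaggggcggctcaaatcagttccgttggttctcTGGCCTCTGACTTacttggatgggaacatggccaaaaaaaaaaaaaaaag
Cd36 half-site, chr5:17836082-17836146, minus strand: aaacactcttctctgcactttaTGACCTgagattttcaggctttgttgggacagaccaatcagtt
Plin5 half-site, chr17:56117676-56117755, minus strand: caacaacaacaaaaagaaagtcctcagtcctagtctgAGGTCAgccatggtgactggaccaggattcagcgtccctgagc
The Ucp3 match began 51 bases before the RefSeq start, that of Cd36 63 bases and that of Plin2 225 bases. The Cd36 promoter searched, 17835847 to 17836146, lies within the annotated span of Cd36, 17781690 to 17888801, and not at its upstream end. The 3 genes with a DR1 match differed in size of change: in aged control against young the log2 change of CPM + 1 was -0.56 for Ucp3, -0.37 for Cd36 and -0.17 for Plin2.

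The first comparison, aged control against young, asks how the genes differ between old and young muscle. All 10 genes were lower in the aged control library, where 52.4% of the compared genes were lower, and 0 were higher, where 47.5% were. The median log2 change of the 10 was -0.56, against -0.01 over all compared genes. On the CPM + 1 scale, 8 of the 10 were at least 20% lower (10.4% of compared genes) and 0 at least 25% higher (9.13%). At least 1.5-fold lower were 3 of the 10, Plin5, Acot2 and Fabp3 (2.55% of compared genes), and 0 were at least 1.5-fold higher (2.69%). The counting interval of the ratio lay below 0 for all 10, as it did for 29.7% of compared genes. Such an interval narrows as counts rise, and the compared genes reach down to 1 CPM, below each of the 10 genes. Shares of intervals, here and below, are therefore not shares among genes of like level. The 10 genes were chosen with earlier results of these data known and each group is 1 library, so these shares only describe the libraries.

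Uptake of fatty acids from blood begins with Lpl, lipoprotein lipase, which frees fatty acids from circulating triglyceride (ENSMUSG00000015568, chromosome 8, 68880491 to 68907448 on GRCm38, plus strand). It stood at 628 CPM in aged EPA, 690 CPM in aged control and 797 CPM in young. The order is stepwise, with the EPA library lowest, but the steps are small: the log2 change was -0.21 for aged control against young (count ratio -0.25, interval -0.27 to -0.23) and -0.13 for aged EPA against aged control (count ratio -0.08, interval -0.10 to -0.06). Lpl was the only 1 of the 10 genes whose counting interval lay below 0 in aged EPA against aged control, where 20.9% of compared genes had such an interval.

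Angptl4, a secreted protein that inactivates lipoprotein lipase and is among the most responsive PPAR targets (chromosome 17, 33773750 to 33781830), had the lowest level of the 10 per transcript length in every library. It stood at 11.3 CPM in aged EPA, 12.04 CPM in aged control and 18.2 CPM in young. Both aged libraries lay close together and the young one lay apart from them. The log2 change was -0.56 for aged control against young (count ratio -0.59, interval -0.73 to -0.45). In aged EPA against aged control it was -0.08, and the count ratio of -0.02 had an interval of -0.18 to 0.14, so a difference was not detectable at this depth. Against young, the aged EPA library was lowest for Angptl4 among the 10 genes (log2 change -0.64).

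Cd36, the fatty acid transporter of the plasma membrane (chromosome 5, 17781690 to 17888801), stood at 323 CPM in aged EPA, 336 CPM in aged control and 436 CPM in young. Again both aged libraries lay together below the young one, with a log2 change of -0.37 for aged control against young (count ratio -0.37, interval -0.39 to -0.34). With EPA, compared with aged control, the sign turned with the divisor: -0.06 from deposited CPM and 0.01 from recovered counts (interval -0.02 to 0.04). Fabp3, which carries fatty acids through the cytosol of heart and muscle (chromosome 4, 130308595 to 130315463), stood at 415 CPM in aged EPA, 373 CPM in aged control and 561 CPM in young. Its log2 change was -0.59 for aged control against young (count ratio -0.58, interval -0.61 to -0.56) and 0.15 for aged EPA against aged control (count ratio 0.22, interval 0.20 to 0.25). The aged EPA library thus lay above the aged control library and still below young (log2 change -0.43).

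Transcripts of Fabp3 and Acot2 share sequence with other genes, which matters for how reads were assigned. Of the stretches of 50 bases in the longest Fabp3 transcript, 29.2% were also found in the transcript of the pseudogene Fabp3-ps1, which stood at 24.7 CPM in aged EPA, 20.7 CPM in aged control and 30.9 CPM in young. Of those in the Acot2 transcript, 24.5% were also found in Acot1, its neighbour on chromosome 12, and 27.7% in any other gene. For the other 8 genes this share was at most 4.89%, so the values of Fabp3 and Acot2 are the less certain ones.

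Fat is stored in lipid droplets, whose coat proteins are the perilipins, and the 2 perilipins among the 10 genes differed in the size of their change. Plin5, the perilipin of oxidative tissues that tethers droplets to mitochondria (chromosome 17, 56111601 to 56117596), stood at 18.5 CPM in aged EPA, 14.2 CPM in aged control and 25.2 CPM in young. The 3 libraries were well apart, with aged EPA between the others. Plin5 had the lowest change of the 10 in aged control against young, 1.73-fold lower on the CPM + 1 scale (log2 change -0.79, count ratio -0.87, interval -0.999 to -0.746), and 1.35% of compared genes changed as far or further down. It also had the highest in aged EPA against aged control, 1.29-fold higher (log2 change 0.36, count ratio 0.44, interval 0.31 to 0.58), where 4.24% of compared genes lay as high or higher.

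Plin2, the perilipin found on droplets of most tissues (chromosome 4, 86648386 to 86670060), stood at 27.0 CPM in aged EPA, 24.9 CPM in aged control and 28.1 CPM in young. All 3 libraries were close, and the interval of Plin2 in aged control against young, -0.32 to -0.11 around a count ratio of -0.22, did not reach that of Plin5. In aged EPA against young the interval of Plin2 held 0 (-0.15 to 0.06), the only 1 of the 10 genes for which it did. Among the other perilipins, Plin4 stood at 308 CPM in aged EPA, 280.2 CPM in aged control and 371 CPM in young (log2 change -0.40 for aged control against young), Plin3 at 36.2, 34.3 and 38.5 CPM in the same libraries, and Plin1, which marks fat cells, at 9.73, 8.44 and 10.1 CPM. All 3 were lower in aged control than in young (52.4% of compared genes), 1 of them by at least 20% (10.4%). All 3 were higher in aged EPA than in aged control (44.2% of compared genes), by less than 25%.

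Inside mitochondria, Acot2, a thioesterase that splits fatty acyl-CoA into free fatty acid and CoA (chromosome 12, 83987861 to 83993873), stood at 28.8 CPM in aged EPA, 25.1 CPM in aged control and 44.1 CPM in young. Both aged libraries were far below young, and the change of Acot2 was close to that of Plin5 (log2 change -0.79, count ratio -0.85, interval -0.94 to -0.75). It was 1.14-fold higher on the CPM + 1 scale in aged EPA than in aged control (log2 change 0.19, count ratio 0.26, interval 0.16 to 0.37). Acot1, the cytosolic counterpart, stood at 2.94 CPM in aged EPA, 3.48 CPM in aged control and 5.89 CPM in young, so it was lower in both aged libraries too but was not higher with EPA. Of the thioesterase genes besides Acot2, 7 were compared, Acot1 included: 6 were lower and 1 higher in aged control than in young (median -0.40), with 5 at least 20% lower, where 10.4% of all compared genes were, among them Acot11 at 11.02 against 14.9 CPM and Acot7 at 12.7 against 17.1 CPM. Acot6 stood at 5.67 CPM in aged control, against 7.78 CPM in young, and Acot9 was the 1 that was higher in aged control (18.9 against 16.8 CPM). In aged EPA against aged control the same list had a median of -0.01, with 3 of 7 at least 25% higher (5.38% of compared genes).

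**Figure D1:**
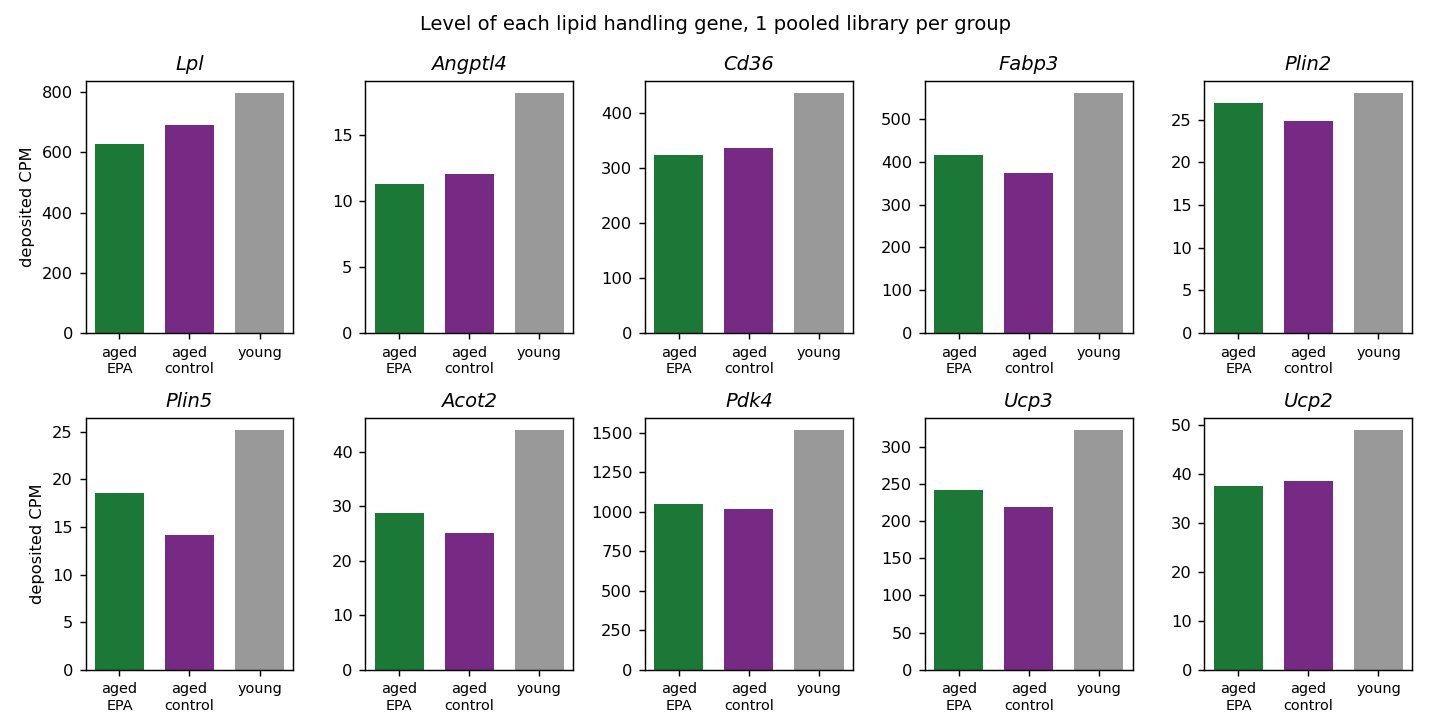
Deposited CPM of each of the 10 genes (bars from 0, own scale per gene) in the aged EPA, aged control and young libraries, 1 pooled library each, so there are no error bars. The young bar is the tallest for every gene; the gap is wide for Plin5 (18.5, 14.2 and 25.2 CPM) and small for Plin2 (27.0, 24.9 and 28.1 CPM).

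Pdk4 takes part in the choice of fuel: it is a kinase that switches off pyruvate dehydrogenase and so spares glucose when fatty acids are used (chromosome 6, 5483351 to 5496309). It stood at 1051 CPM in aged EPA, 1019 CPM in aged control and 1519.8 CPM in young. Both aged libraries lay at about the same level and well below young. The log2 change was -0.58 for aged control against young (count ratio -0.62, interval -0.63 to -0.60) and 0.04 for aged EPA against aged control (count ratio 0.10, interval 0.08 to 0.12). The other kinases and the phosphatases of the same enzyme complex did not form a common pattern between aged control and young. Of 5 genes compared, 3 were lower and 2 higher in aged control than in young (median -0.02). Pdk2, another of the kinases, stood at 598 CPM in aged EPA, 540.4 CPM in aged control and 548 CPM in young. Pdp2, a phosphatase that reactivates the complex, was the 1 gene at least 20% lower (5.89 against 8.91 CPM), Pdp1 stood at 65.1 against 64.4 CPM and Pdk1 at 45.5 against 39.9 CPM. With EPA, compared with aged control, 4 of the 5 were higher, where 44.2% of compared genes were, and none by 25% (5.38% of compared genes).

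The uncoupling proteins Ucp3 and Ucp2, carriers of the mitochondrial inner membrane, lie next to each other on chromosome 7 (100472990 to 100486432 and 100493337 to 100502020, both on the plus strand). Ucp3, the form of skeletal muscle, stood at 241 CPM in aged EPA, 219 CPM in aged control and 323 CPM in young. Its log2 change was -0.56 for aged control against young (count ratio -0.55, interval -0.59 to -0.52) and 0.14 for aged EPA against aged control (count ratio 0.21, interval 0.18 to 0.25). Ucp2, which many tissues and white blood cells also express, stood at 37.6 CPM in aged EPA, 38.7 CPM in aged control and 49.1 CPM in young. Its change in aged control against young was smaller than that of Ucp3 (log2 change -0.34, count ratio -0.34, interval -0.42 to -0.25), without overlap of the 2 intervals. In aged EPA against aged control, Ucp2 turned with the divisor, as Cd36 did: -0.04 from deposited CPM and 0.03 from recovered counts (interval -0.06 to 0.11). Ucp1, the uncoupling protein of brown fat, was listed at 0 in all 3 libraries. Of 3 more distant carriers compared, Slc25a27 stood at 7.89 CPM in aged control, against 10.03 CPM in young, and Slc25a30 at 14.1 against 10.7 CPM. On the CPM + 1 scale, Slc25a30 was at least 25% higher in aged control and none was at least 20% lower. In aged EPA against aged control the list had a median of 0.00.

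**Figure D2:**
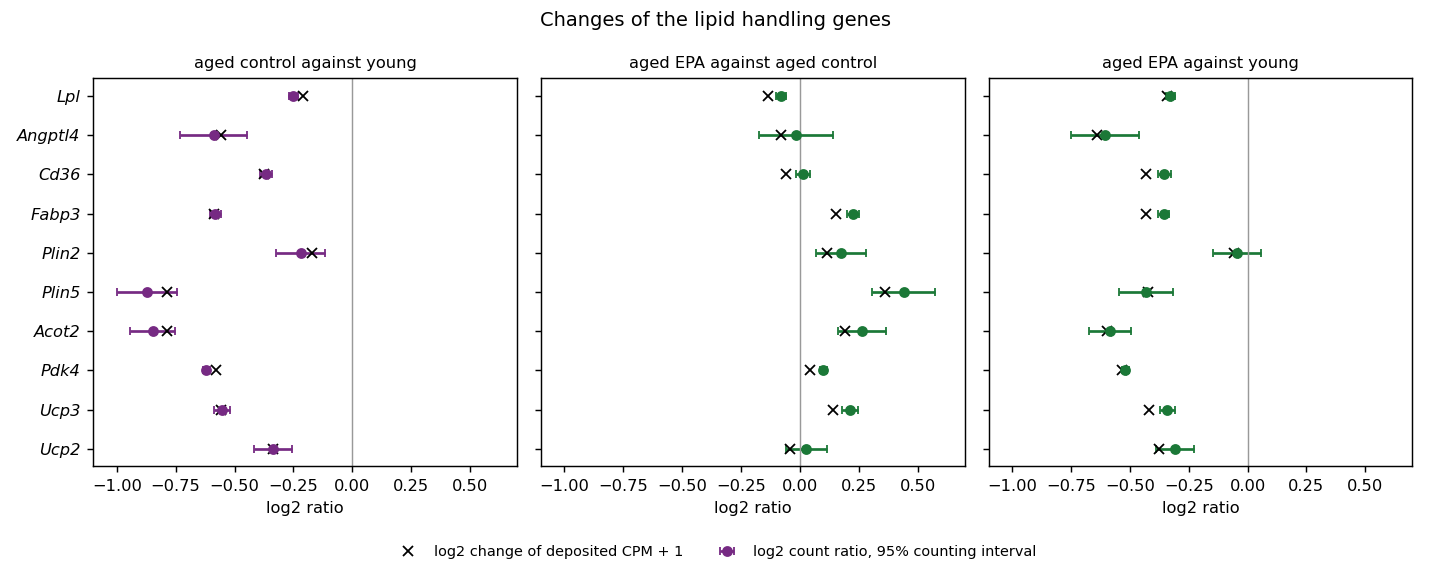
Log2 ratios of the 10 genes (rows) in the 3 comparisons (panels); circles are ratios of recovered counts, each divided by the total of its library, with 95% counting intervals, crosses are changes of deposited CPM + 1. All circles lie below 0 in aged control against young; in aged EPA against aged control they spread from -0.08 for Lpl to 0.44 for Plin5, and the crosses lie left of the circles for every gene.

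The second comparison, aged EPA against aged control, addresses the effect of dietary EPA in aged mice. The genes did not share a direction: 6 were higher and 4 lower from deposited CPM, where 44.2% of compared genes were higher and 55.8% lower, and 8 were higher and 2 lower from recovered counts, where 53.0% of compared genes were higher and 47.0% lower. The median of all compared genes moved as well, to 0.01 from recovered counts. The median log2 change was 0.08, against -0.03 over all compared genes. At least 25% higher was 1 of the 10, Plin5 (5.38% of compared genes), and 0 of the 10 were at least 20% lower (7.38%). At least 1.5-fold, 0 were higher (1.69% of compared genes) and 0 lower (1.91%). The counting interval lay above 0 for 6 genes, Plin5, Acot2, Fabp3, Ucp3, Plin2 and Pdk4, below 0 for Lpl, and held 0 for Cd36, Ucp2 and Angptl4; 25.4% of compared genes had an interval above 0. The change from deposited CPM to recovered counts alone, with 1 CPM added in both, moved these log2 changes by 0.05 to 0.07, against deposited changes of -0.06 for Cd36, -0.04 for Ucp2, 0.04 for Pdk4, 0.19 for Acot2 and 0.36 for Plin5. No value here gives the spread between libraries of 1 group.

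The third comparison sets aged EPA against young and shares a library with each of the others, so it adds no independent evidence. All 10 genes were lower (56.7% of compared genes) and 0 higher (43.3%). At least 20% lower were 9 of the 10 (11.7% of compared genes), all but Plin2, and 0 were at least 25% higher (7.43%). Angptl4 and Acot2 were at least 1.5-fold lower (2.96% of compared genes), and 0 were at least 1.5-fold higher (2.4%). The median log2 change was -0.43, against -0.04 over all compared genes. The summed level of the 10 genes was 2782 CPM in aged EPA, 2752 CPM in aged control and 3801 CPM in young.

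**Figure D3:**
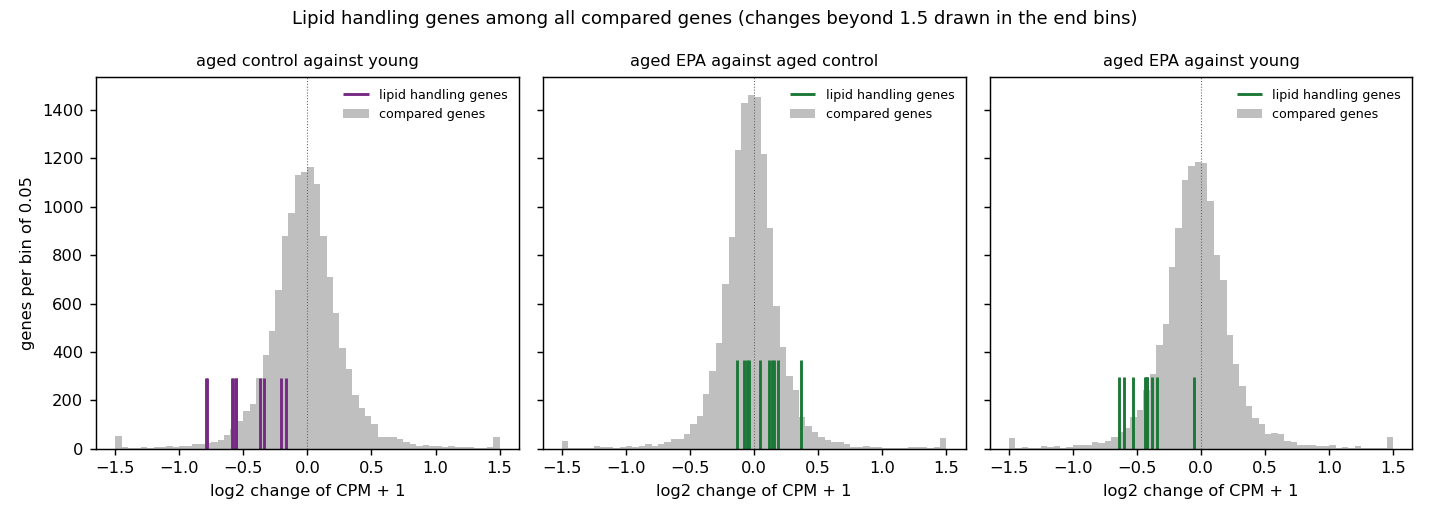
Distribution of the log2 change of CPM + 1 over the 12966 compared genes (grey, genes per bin of 0.05) with the 10 genes as coloured lines, 1 panel per comparison. The lines lie between -0.79 and -0.17 in aged control against young, between -0.13 and 0.36 in aged EPA against aged control and between -0.64 and -0.06 in aged EPA against young.

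Levels of different genes can be compared only per length. In CPM per kilobase of the longest annotated transcript, averaged over the 3 libraries, the order was Fabp3 (546), Pdk4 (343), Lpl (171), Cd36 (107.4) and Ucp3 (106.7), and then, far lower, Acot2 (14.9), Plin2 (14.1), Ucp2 (10.5), Plin5 (9.72) and Angptl4 (4.19). Neighbours changed places between libraries. Acot2 stood at 13.1 CPM per kilobase in aged EPA, 11.4 in aged control and 20.1 in young, and Plin2 at 14.3, 13.2 and 14.9 in the same libraries, so that Plin2 was the higher of the 2 in both aged libraries and Acot2 in young. The other neighbours that changed places were Cd36 and Ucp3, and Ucp2 and Plin5.

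Change went with transcript length across all compared genes: Spearman's rho was 0.28 in aged control against young and -0.22 between aged EPA and aged control, as a description across genes of the same libraries. Fabp3 has the shortest transcript of the 10, 823 bases, and the smoothed trend at that length was -0.16 in aged control against young; after subtraction its change was -0.43. For the other 9 genes the trend lay between -0.06 and 0.01 in that comparison. With the trend subtracted, the median of the 10 was -0.48.

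Of the receptors themselves and their partners, more were higher than lower in aged control against young. Ppara, the PPAR of oxidative tissues, stood at 7.00 CPM in aged EPA, 11.1 CPM in aged control and 6.64 CPM in young. On the CPM + 1 scale, the aged control library stood 1.58-fold above young for Ppara, and aged EPA 1.51-fold below aged control. Ppard, the form found in most tissues, stood at 43.0 CPM in aged EPA and 40.2 CPM in both others. Pparg, the PPAR of fat cells, stood at 4.93, 6.54 and 6.71 CPM in aged EPA, aged control and young. Over 16 receptors, partners and cofactors, 11 were higher and 5 lower in aged control than in young (median 0.10; 47.5% of compared genes were higher), with 3 at least 25% higher (9.13%) and 1 at least 20% lower (10.4%). Lpin1, a phosphatidate phosphatase that also acts as a coactivator, stood at 419.7 CPM in aged EPA, 421 CPM in aged control and 221 CPM in young. The coactivator gene Ncoa2 stood at 12.1, 15.1 and 28.3 CPM and the corepressor gene Nrip1 at 55.8, 70.5 and 47.9 CPM in the same libraries. With EPA, compared with aged control, 10 of the 16 were lower, where 55.8% of compared genes were, and 4 were at least 20% lower (7.38%). The median was -0.08, or 0.004 with the length trend subtracted.

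Other textbook PPAR targets, some of which are also counted in the lists named above, were mostly lower in aged control than in young. Of 27 compared, 25 were lower in aged control than in young (52.4% of compared genes), 11 by at least 20% (10.4% of compared genes), and the median was -0.23. The mitochondrial carrier gene Slc25a34 stood at 10.3 CPM in aged control, against 18.3 CPM in young, the fatty acid binding protein gene Fabp4 at 173 and 260.0 CPM, the malonyl-CoA decarboxylase gene Mlycd at 76.6 and 112 CPM and the peroxisomal enzyme gene Ehhadh at 5.69 and 8.41 CPM. In aged EPA against aged control the list had a median of 0.03, with 4 genes at least 25% higher (5.38% of compared genes) and 1 at least 20% lower (7.38%). Among the 4 were Slc25a34 at 14.8 CPM and Mlycd at 97.8 CPM in aged EPA. The 1 was Acsl1, at 126 CPM in aged EPA, 327 CPM in aged control and 377 CPM in young; it makes acyl-CoA, the substrate of Acot2. Acsl1 is named here because of its value.

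Lipoprotein lipase acts together with Gpihbp1, the protein that anchors it to the capillary wall, which stood at 31.8 CPM in aged EPA, 34.5 CPM in aged control and 48.9 CPM in young. Of 7 genes of the lipase system compared besides Lpl and Angptl4, 3 were lower and 4 higher in aged control than in young (median 0.00), with Gpihbp1 the 1 at least 20% lower. Vldlr, a receptor for triglyceride-rich particles, stood at 284 CPM in aged control, against 311 CPM in young, and the maturation factor gene Lmf1 at 10.3 and 9.35 CPM. Apoe, a ligand of such receptors, was higher in both aged libraries, at 142 CPM in aged EPA, 124 CPM in aged control and 68.3 CPM in young. With EPA, compared with aged control, the list had a median of -0.09, or -0.002 with the length trend subtracted. Of the other fatty acid binding proteins, 2 were compared, Fabp4 and Fabp5, and both were lower in aged control than in young (median -0.39). Their median in aged EPA against aged control was -0.08, or -0.05 with the length trend subtracted.

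**Figure D4:**
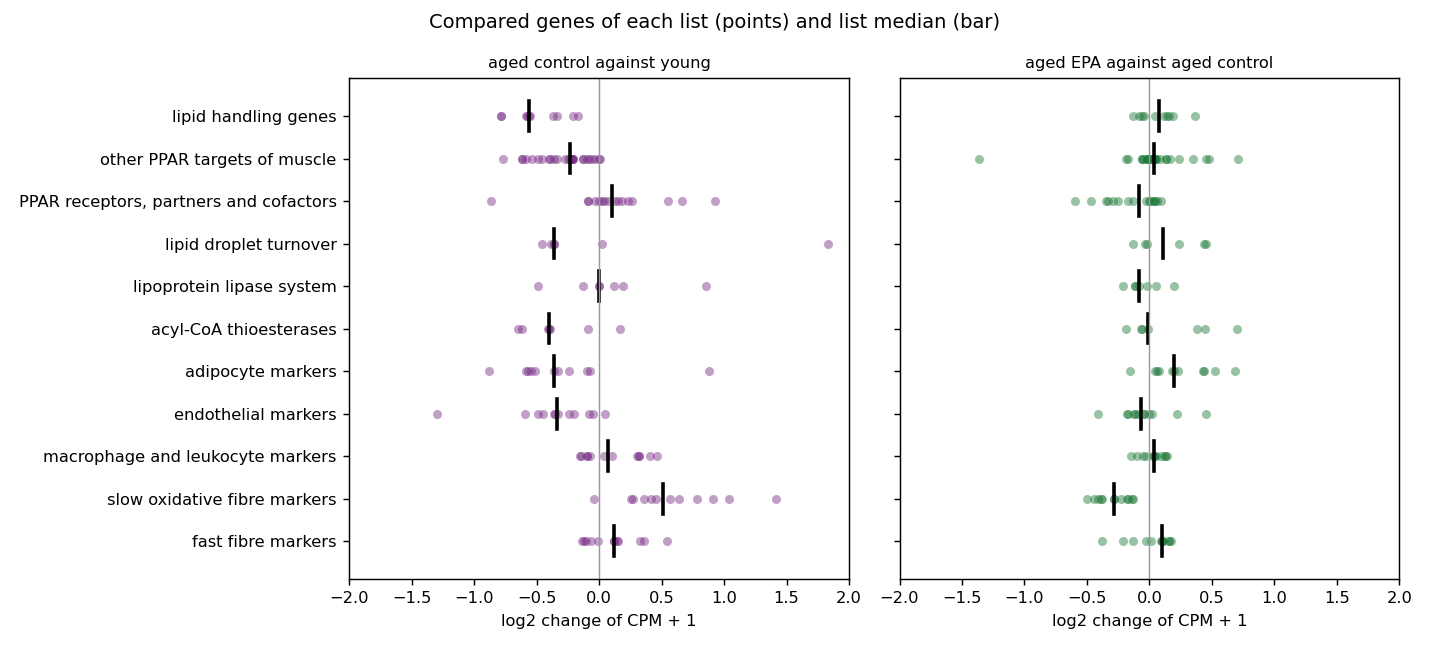
Log2 change of CPM + 1 of each compared gene (points) and the median (bar) for the 10 genes and 10 related lists, without the 10 genes themselves, in aged control against young (left) and aged EPA against aged control (right). In the left panel the median of the 10 genes (-0.56) lies further left than that of the other PPAR targets (-0.23). The slow fibre markers lie to the right (0.51) in the left panel and to the left (-0.28) in the right panel. The 10 genes and the lists were chosen with earlier results of these data known.

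Several of the 10 genes are also expressed by cells other than muscle fibres, and markers of these cells moved between libraries. Their part in the results was not tested. Fat cells hold Cd36, Lpl and Plin2. None of 12 fat cell markers was at 0, and without Car3, which muscle expresses strongly, they summed to 395 CPM in aged EPA, 339 CPM in aged control and 504 CPM in young. Of 11 compared, 10 were lower in aged control than in young (median -0.36, 7 at least 20% lower, against 10.4% of compared genes) and 10 were higher in aged EPA than in aged control (median 0.20, against 44.2% of compared genes higher). Adipoq, the defining gene among them, stood at 18.4 CPM in aged EPA, 15.9 CPM in aged control and 16.8 CPM in young, Cfd at 85.3, 59.1 and 109.7 CPM, Retn at 6.28, 4.42 and 7.05 CPM and Pck1 at 15.3, 9.17 and 13.8 CPM. Fabp4, at 178, 173 and 260.0 CPM in the same libraries, was the largest part of the sum without Car3. Lep, the 1 compared marker that was higher in aged control than in young, stood at 5.62, 5.37 and 2.46 CPM.

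Capillary endothelium holds Cd36 and Gpihbp1. None of 12 endothelial markers was at 0, and they summed to 552 CPM in aged EPA, 602 CPM in aged control and 736 CPM in young. Of the 12, 11 were lower in aged control than in young (median -0.34, 7 at least 20% lower, against 10.4% of compared genes). The median in aged EPA against aged control was -0.07, or -0.03 with the length trend subtracted. Pecam1 stood at 79.9 CPM in aged EPA, 82.2 CPM in aged control and 103 CPM in young, Cldn5 at 13.003, 9.22 and 24.1 CPM, Esam at 27.0, 27.1 and 41.3 CPM and Egfl7 at 28.0, 23.9 and 32.9 CPM. Across the 12 markers the log2 change of aged control against young ran between -1.29 for Cldn5 and 0.05 for Kdr.

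White blood cells hold Ucp2. Their 12 markers summed to 350.4 CPM in aged EPA, 339.96 CPM in aged control and 329 CPM in young, with 7 higher and 5 lower in aged control than in young (median 0.07) and a median of 0.04 in aged EPA against aged control. Ptprc, the pan-leukocyte gene, stood at 6.32 CPM in aged EPA, 6.18 CPM in aged control and 4.20 CPM in young; Cd163 stood at 36.7, 35.8 and 26.8 CPM, Itgam at 7.23, 7.40 and 5.73 CPM and Adgre1 at 7.07, 7.37 and 5.72 CPM. The 5 markers lower in aged control than in young, as Ucp2 was, were Lyz2, C1qa, C1qb, Laptm5 and Tyrobp, with log2 changes of -0.15 to -0.07. The 5 red cell markers were all lower in aged control than in young (median -1.41), with Hba-a1 at 180.0 against 479 CPM, Hba-a2 at 158 against 427 CPM, Hbb-bs at 146 against 388 CPM and Hbb-bt at 70.6 against 202 CPM, and had a median of 0.04 in aged EPA against aged control.

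Fibre type is a further difference, since slow fibres burn more fat than fast ones. The part of fibre type in the results was not tested. Slow fibre markers were higher in aged control than in young in 11 of 12 genes (median 0.51), where 47.5% of compared genes were higher. With EPA all 12 were lower than in aged control (median -0.28), where 55.8% of compared genes were lower. Myh7, the slow myosin, stood at 126 CPM in aged EPA, 178 CPM in aged control and 66.4 CPM in young. The slow troponin genes Tnni1, Tnnt1 and Tnnc1 stood 2.05-fold, 1.88-fold and 1.72-fold above young in aged control on the CPM + 1 scale. Of 12 fast fibre markers, 7 were higher and 5 lower in aged control than in young (median 0.12). Among the 7 were Myh1, 1.46-fold higher, Myh4, 1.28-fold, Myh2, 1.252-fold, and Atp2a1, 1.11-fold. With EPA, 8 were higher and 4 lower than in aged control (median 0.10), where 44.2% of compared genes were higher. Myh1, Myh2 and Myh4 were among the 4.

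Pdk4 and Angptl4 also answer to glucocorticoids and to the fasting factor FoxO1. Of 15 genes of that kind, 10 were lower and 5 higher in aged control than in young (median -0.21), where 52.4% of compared genes were lower. At least 20% lower were 3 (10.4% of compared genes), and 2 were at least 25% higher (9.13%). With EPA, 10 were lower and 5 higher than in aged control, where 55.8% of compared genes were lower, and the median was -0.08, or 0.002 with the length trend subtracted. The 3 were the metallothionein genes Mt1 (24.1 against 50.1 CPM) and Mt2 (19.6 against 43.8 CPM) and the ubiquitin ligase gene Trim63 (320.4 against 459.5 CPM). Per1, a clock gene that glucocorticoids induce, was higher in aged control (97.3 against 69.7 CPM). Times of dissection and feeding state are not given in the labels.

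The genes nearest to the median of the 10 were S1pr3, Zhx1, Mrpl14, Fabp4 and Trim63. Nearness was taken in the plane of the log2 changes of aged control against young and of aged EPA against aged control. Distances were 0.03 to 0.05 in log2 units over 3 libraries, among 7284 genes averaging 10 CPM or more. S1pr3 stood at 9.23 CPM in aged EPA, 8.79 CPM in aged control and 13.7 CPM in young, Zhx1 at 10.2, 9.50 and 14.8 CPM and Mrpl14 at 31.6, 30.6 and 45.1 CPM. Fabp4 stood at 178 CPM and Trim63 at 347 CPM in aged EPA. A likeness over 3 libraries is a description only.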

How the data were processed

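The deposited tables hold 1 CPM value per gene and library, as the authors calculated them; HISAT2 2.1.0, StringTie 1.3.4d, R 3.5.0 and build GRCm38 are named in the submitters' processing notes, without their roles. Values of 63 rows with a repeated symbol were summed. Whole counts were recovered by trying each of 5 divisors per value (largest distance from a whole number 3.0268e-09), and the recovery was tested on simulated data. Genes averaging 1 CPM or more were compared, with a pseudocount of 1 CPM. Coordinates and transcript lengths are from GENCODE M21. No library has a replicate, so no p-value is given. Counts of the 10 genes past a fold (25% higher or 20% lower, and 1.5-fold, on the CPM + 1 scale) are set beside the percentage of all compared genes. The same scale and percentages hold for the lists. The members and lists were chosen with earlier results of these data known. Genes named from each list are the up to 4 with the largest change of aged control against young and a mean of at least 5 CPM. Adipoq, Pecam1, Ptprc, Myh7 and the PPARs are named as well. Acot1, Fabp5, Lep, Kdr, Acsl1 and the leukocyte markers lower in aged control than in young were added after their values were seen. Python 3.11.15, numpy, pandas, scipy and statsmodels were used. Alternatives were other pseudocounts, filters, folds and scalings, recovered counts, and subtraction of the length trend.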

Additional observations from a re-analysis of the deposited data

How the results depend on the processing

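No paired analysis was possible because each group is a single library. Of 12 alternatives, 7 could move a value of the 10 genes; the filters, the folds and the choice of row could not. Under these 7, all 10 genes were lower in aged control than in young and in aged EPA than in young. The median of the 10 ranged from -0.58 to -0.48 for aged control against young, from 0.07 to 0.13 for aged EPA against aged control and from -0.43 to -0.35 for aged EPA against young. In aged control against young it was -0.50 with a pseudocount of 5 CPM and -0.48 with the length trend subtracted, and in aged EPA against young -0.35 with recovered counts. At a fold of 1.5 in place of 25% higher or 20% lower, 3 genes were lower in aged control than in young, 2 were lower in aged EPA than in young and 0 were higher in aged EPA than in aged control; at a fold of 2 each of these counts was 0. With a pseudocount of 5 CPM, 0 genes were at least 25% higher in aged EPA than in aged control. Of 210 single-gene values under the 7, 173 moved by less than the margin of their counting interval and 37 by more. Recovered counts turned Cd36 and Ucp2 in aged EPA against aged control. Counting intervals held 0 for Angptl4, Cd36 and Ucp2 in aged EPA against aged control and for Plin2 in aged EPA against young, so these differences were not detectable at this depth.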

Other observations

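Mgll, which encodes monoglyceride lipase, the last step of triglyceride breakdown, stood at 87.8 CPM in aged EPA, 96.5 CPM in aged control and 26.3 CPM in young, 3.25-fold above young in aged EPA and 3.57-fold above young in aged control on the CPM + 1 scale. Of 6 genes of droplet turnover compared, Mgll included, 4 were lower in aged control than in young, all 4 by at least 20% (median -0.36; 10.4% of compared genes), and the median in aged EPA against aged control was 0.11. Abhd5, the activator of Pnpla2, stood at 38.8 CPM in aged EPA, 39.3 CPM in aged control and 38.7 CPM in young, and was named after its value was seen. Pnpla2, the first triglyceride lipase, stood at 297 CPM in aged EPA, 253 CPM in aged control and 324 CPM in young. Lipe, hormone-sensitive lipase, stood at 45.5, 33.3 and 43.1 CPM and G0s2, an inhibitor of Pnpla2, at 10.3, 7.28 and 10.4 CPM in the same libraries.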
